A study of Drosophila melanogaster with 18 samples.

Results

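CycA, CycB, CycB3, Cks30A, Wee1 and gwl encode regulators of the kinase Cdk1, and their poly(A) site use and 3′-end counts were examined in testes of Drosophila melanogaster. They were taken by name from the deposited count tables, and all 6 were found, among 529 gene entries with 522 gene symbols and 1082 poly(A) sites. All 1082 sites were among the 1098 of the authors' own site list. That list is labelled as bam against spermatocytes, and how it was made is not stated. All 6 passed the filter on low values (10 or more counts in the average library), as did 525 entries in all. Below, all genes means these 525 entries and not the genome. Whether they were picked for a difference between bam and spermatocyte samples is not stated, so they may not be a neutral background. Each of the 6 genes was listed with 2 sites, called here proximal (nearer the stop codon) and distal.

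The study sequenced the 3′ ends of polyadenylated transcripts (QuantSeq forward libraries) in 18 libraries, 9 groups of 2, each from about 150 pairs of testes. Every group carried bamGal4, a driver under the promoter of bam, which is active in late spermatogonia and early spermatocytes, and the control carried bamGal4 alone. The other 8 groups expressed in addition an RNAi construct against PCF11 (PCF11_KD and PCF11_NIG_KD, separate lines), cbc (cbc_KD, stock BL 77426), su(f) (suf_KD), CstF64 (CstF64_KD), CstF50 (CstF50_KD), CPSF6 (CPSF6_KD) or PABP2 (PABP2_KD). Parents were crossed at 25 °C for 3 days and their offspring raised at 29 °C afterwards; the age at dissection is not given. PCF11 and cbc form cleavage factor II, su(f), CstF64 and CstF50 form the cleavage stimulation factor, CPSF6 is part of cleavage factor I, and PABP2 binds poly(A) tails in the nucleus. The question addressed was which genes change poly(A) site when each factor is depleted.

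Cdk1 bound to an A-type or B-type cyclin drives entry into M phase. Cyclin A and Cyclin B are activating subunits, Cyclin B3 is a further mitotic cyclin, and Cks30A is a small subunit that docks the kinase on phosphorylated substrates. Wee1 phosphorylates and inhibits Cdk1, and the Greatwall kinase, encoded by gwl, acts through Endosulfine to inhibit the PP2A phosphatase that removes Cdk1 phosphorylations. Spermatocytes spend a long G2 phase growing and transcribing before the meiotic divisions, and in the fly Cyclin B protein is held low until shortly before them.

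Totals per library ran from 342763 to 819286 counts, and single members had 31 to 4830 counts in a library. The knocked-down factors were not among the gene entries, so their remaining level was not measured. The duplicates of PABP2_KD differed from each other more than those of any other group (chi-square per degree of freedom over genes 92.9, against 4.56 to 25.4), and results in PABP2_KD that rest on 1 of its libraries are given without it. These libraries also enter the spread shared by all comparisons. Leaving either out of the fit, an alternative chosen after seeing the data, gained calls elsewhere, and these are given beside each result. The labels give no batch. The sample numbers in the column headers recur between control and PABP2_KD, PCF11_KD and CPSF6_KD, suf_KD and CstF50_KD, and PCF11_NIG_KD and CstF64_KD. The libraries thus came from more than 1 numbered set, and within these pairs of groups a set and a group cannot be told apart. Which set held each of the groups is not given, so any knockdown may differ from control in set as well. Reads were assigned without regard to strand. The only annotated gene of the opposite strand at a member's site was Rat1 at the distal site of Wee1; its annotated 3′ end at 6911423 lies 53 nt from the counted block, and reads of Rat1 and Wee1 cannot be told apart there. In whole testes, fewer cells of a type and less RNA per cell cannot be told apart either.

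The sites are given in BDGP6 coordinates, with distances counted from the stop codon. CycA lies on the minus strand of 3L, with sites at 11827202 (450 nt after the stop codon) and 11826717 (935 nt). CycB lies on the minus strand of 2R, with sites at 22804165 (129 nt) and 22803521 (773 nt). CycB3 lies on the minus strand of 3R, with sites at 24868559 (242 nt) and 24868353 (448 nt). The proximal sites of these cyclins lie in annotated 3′ UTRs, and the distal ones at or within 3 nt of an annotated 3′ end. Cks30A lies on the plus strand of 2L, with sites at 9331672 (321 nt) and 9332027 (676 nt). Wee1 lies on the minus strand of 2L, with sites at 6911524 (177 nt) and 6911340 (361 nt). gwl lies on the plus strand of 3R, with sites at 18750164 (160 nt) and 18750364 (360 nt). The distal site of Cks30A is 46 nt past the annotated gene end, and those of Wee1 and gwl are 3 and 4 nt from annotated 3′ ends. CycB3 and Wee1 have further annotated 3′ ends, 867 and 611 nt after the stop codon. No site was counted at these ends, so the totals below leave them out. The 2 sites are 184 nt (Wee1) to 644 nt (CycB) apart, beside a median of 415 nt over all entries. No member's proximal site lies at an annotated 3′ end: the nearest is 119 nt away in CycA and 644 nt away in CycB.

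**Figure D1:**
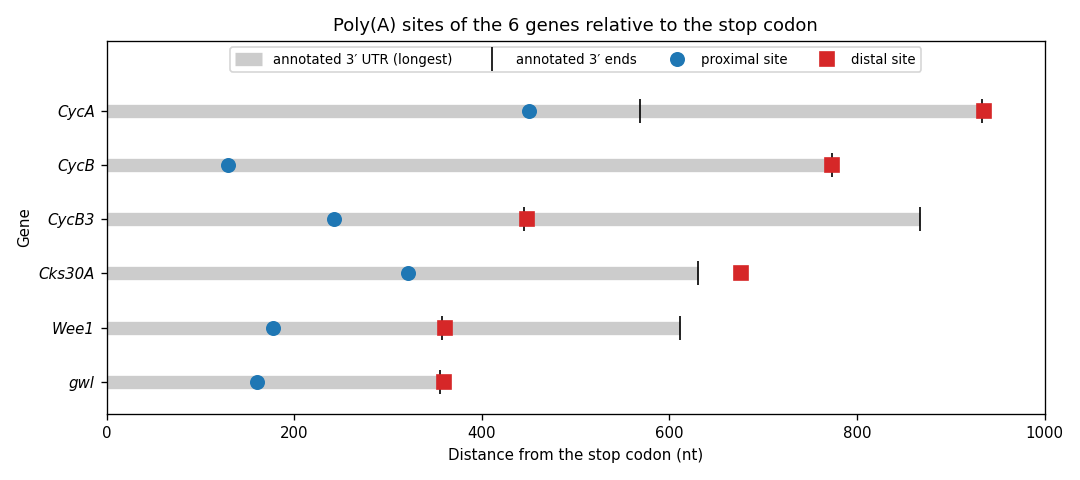
Poly(A) sites of the 6 genes by distance from the stop codon (nt, horizontal axis). Grey bars are the longest annotated 3′ UTR, black ticks annotated 3′ ends, circles proximal and squares distal sites; the distal site of Cks30A, at 676 nt, lies beyond the last tick, and the proximal site of CycB, at 129 nt, is the nearest to a stop codon.

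Poly(A) site use shifted distally in most of these genes in the knockdowns of cleavage factor II and PABP2, and in fewer of them in the other knockdowns. In PCF11_KD all 6 moved toward distal, where 43.8% of the 525 tested genes did. In PCF11_NIG_KD 5 of 6 did (33.9% of all genes), all but CycB3 (adjusted p = 0.059, and 0.0242 and 0.0243 without either PABP2_KD library). In cbc_KD all 6 did (60.6%), and in PABP2_KD 5 of 6, all but CycB (37.3%). Values are changes in the log2 odds (proximal counts over distal counts, so that negative is toward distal), from edgeR's quasi-likelihood test with Benjamini-Hochberg adjustment over all genes at a threshold of 0.05. In PCF11_KD the median was -2.73 over the 6 genes and -0.84 over all tested genes, in PCF11_NIG_KD -1.76 and -0.56, in cbc_KD -3.98 and -1.76, and in PABP2_KD -2.37 and -0.46.

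CycB3, Cks30A and Wee1 moved toward distal in suf_KD (3 of 6, beside 26.1% of all genes) and in CstF64_KD (3 of 6, beside 17.7%). In CPSF6_KD, CycA and Cks30A moved toward distal (14.7% of all genes) and Wee1 toward proximal (24.2%). In CstF50_KD 0 of 6 passed by edgeR in either direction, 1 had an unadjusted p under 0.05 (Wee1) and 0 passed by DESeq2. There, 6.86% of all genes moved toward distal and 33.9% toward proximal. The median change of the members and of all genes was -1.44 and -0.23 in suf_KD, -1.29 and 0.24 in CstF64_KD, -0.58 and 0.75 in CstF50_KD, and -1.14 and 0.48 in CPSF6_KD. All 8 comparisons share the control libraries, so the members' low values in several of them are not independent of one another.

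**Figure D2:**
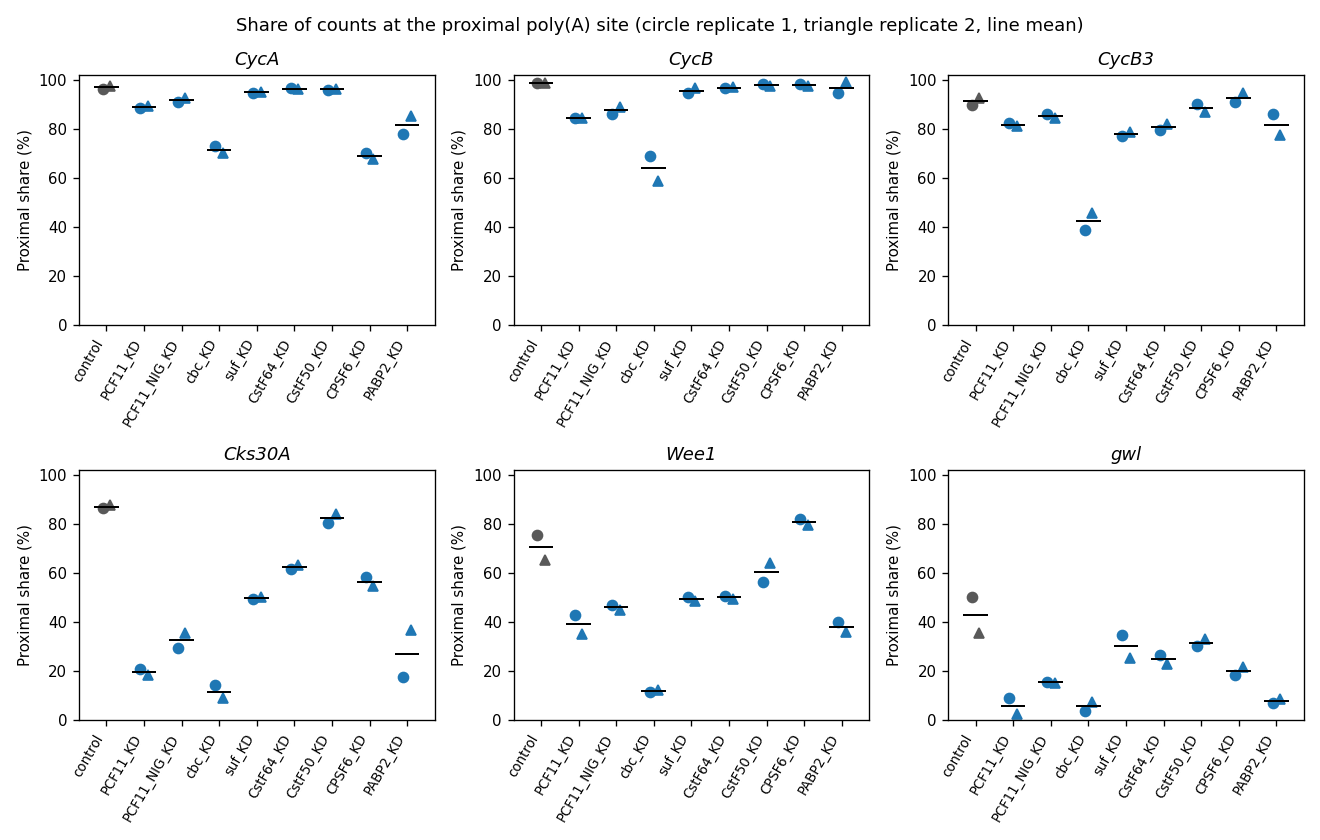
Proximal share (counts at the proximal site as a percent of both sites, vertical axes) in each library, 1 panel per gene; circles are replicate 1, triangles replicate 2, lines the mean of 2, and grey marks the control. cbc_KD has the lowest mean in every gene but CycA, where CPSF6_KD is lower (69.0% against 71.5%), and Wee1 in CPSF6_KD lies above both controls.

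Cyclin A transcripts ended almost entirely at the proximal site in control testes, with proximal shares of 96.2% and 97.6% (4 and 3 distal counts, exact 95% binomial intervals 90.4 to 98.9% and 93.1 to 99.5%). The shares were 88.3% and 89.4% in PCF11_KD, 90.9% and 92.5% in PCF11_NIG_KD, and 72.8% and 70.1% in cbc_KD. CPSF6_KD libraries had 70.1% and 67.9%, and PABP2_KD libraries 78.1% and 85.1%. All libraries of these 5 knockdowns lay below both controls. The change in log2 odds was -3.79 ± 0.37 (SE) in CPSF6_KD (adjusted p = 1.5e-05), -3.62 ± 0.36 in cbc_KD (9.47e-07), -2.77 ± 0.37 in PABP2_KD (3.26e-05), -1.94 ± 0.38 in PCF11_KD (0.000925) and -1.48 ± 0.39 in PCF11_NIG_KD (0.00741). The last of these was lost when control replicate 2 was left out (adjusted p = 0.161, and 0.00617 or higher over all alternatives). The subunits of the cleavage stimulation factor gave values near the control and none passed, though both suf_KD libraries also lay below both controls. Shares were 94.4% and 95.2% in suf_KD (adjusted p = 0.254), 96.5% and 96.2% in CstF64_KD (0.753), and 96.0% and 96.4% in CstF50_KD (0.685). In the order of group means, suf_KD was separate from CstF50_KD, while CstF50_KD overlapped CstF64_KD and CstF64_KD overlapped control.

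Expressed as a mean distance from the stop codon to the site used, CycA went from 465 ± 4.89 nt in control to 588 ± 9.33 nt in cbc_KD and 600 ± 7.59 nt in CPSF6_KD (mean ± SD, n = 2). The 2 groups reached this with different site levels. The proximal site was at 325 ± 63.3 CPM (counts relative to the library's scaled total over the genes of the tables) in control, 389 ± 36.2 in CPSF6_KD and 970 ± 185 in cbc_KD. The distal site was at 10.2 ± 1.44, 175 ± 29.1 and 384 ± 37.5 CPM. Levels of single sites were not tested. At the distal site all libraries of both knockdowns lay above the controls, whereas the 363 and 414 CPM of CPSF6_KD at the proximal site overlapped the 280 and 369 CPM of control.

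Cyclin B had the most one-sided use in control, with proximal shares of 98.5% and 98.9%. It fell to 84.2% and 84.6% in PCF11_KD, 86.0% and 89.1% in PCF11_NIG_KD, and 69.1% and 58.7% in cbc_KD. These were the 3 knockdowns in which CycB moved toward distal, by -3.76 ± 0.76 (adjusted p = 0.00104), -3.38 ± 0.76 (0.00265) and -5.37 ± 0.74 (2.22e-05). In suf_KD shares of 94.5% and 96.5% gave a change of -1.76 ± 0.79 that did not pass (adjusted p = 0.101). It passed by DESeq2 (0.0442) and without either PABP2_KD library (0.00486 and 0.00491). CstF64_KD had 96.4% and 96.9% (adjusted p = 0.202), and its change passed without either PABP2_KD library (-1.34, adjusted p = 0.0288 each). Shares were 98.4% and 97.4% in CstF50_KD (0.579), and 98.3% and 97.3% in CPSF6_KD (0.535). PABP2_KD gave 94.5% and 99.1%, on either side of the controls. Its change was -0.89 ± 0.82 (adjusted p = 0.374); without replicate 1 it was 0.59 and without replicate 2 it was -2.10 and passed (0.00206). The distal site of CycB, at 21.9 ± 0.73 CPM in control, was at 425 ± 17.9 in PCF11_KD, 290 ± 8.55 in PCF11_NIG_KD and 737 ± 201 in cbc_KD.

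Cyclin B3 had control shares of 89.7% and 92.6%. In cbc_KD they were 38.9% and 45.7%, the only group in which the distal site held more CycB3 counts than the proximal one, and the log2 odds changed by -3.83 ± 0.35 (adjusted p = 3.52e-07). The other called changes were smaller. Shares were 77.2% and 78.6% in suf_KD (-1.57 ± 0.34, adjusted p = 0.00264), 79.5% and 82.1% in CstF64_KD (-1.31 ± 0.34, 0.00907), and 82.3% and 81.2% in PCF11_KD (-1.22 ± 0.35, 0.00967). In PABP2_KD they were 86.0% and 77.4% (-1.18 ± 0.35, 0.00996). Without control replicate 2 the calls in CstF64_KD, PABP2_KD and PCF11_KD were lost (adjusted p = 0.0837, 0.0959 and 0.098). That in CstF64_KD was also lost without its own replicate 1 (0.0669), and that in PABP2_KD without its own replicate 2 (0.0653). PCF11_NIG_KD, at 86.2% and 84.3%, CstF50_KD, at 90.0% and 87.0%, and CPSF6_KD, at 90.9% and 94.6%, did not pass (adjusted p = 0.059, 0.35 and 0.48). In cbc_KD the proximal site of CycB3 was at 494 ± 64.3 CPM, below both controls (835 ± 179), and the distal site at 673 ± 43.9 CPM against 78.8 ± 3.44.

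Cks30A had the widest spread of the 6 genes over the groups. Control libraries had proximal shares of 86.3% and 87.5%. CstF50_KD, at 80.2% and 84.0%, was the nearest to them and did not pass (-0.53 ± 0.45, adjusted p = 0.379). CstF64_KD was at 61.5% and 63.3% (-1.995 ± 0.44, adjusted p = 0.00319), CPSF6_KD at 58.2% and 54.5% (-2.36 ± 0.45, 0.00122), and suf_KD at 49.3% and 50.0% (-2.74 ± 0.44, 0.000244). None of these groups overlapped its neighbours in this order. PCF11_NIG_KD was at 29.2% and 35.7% (-3.78 ± 0.43, 8.97e-06), PABP2_KD at 17.5% and 36.8% (-4.24 ± 0.44, 3.14e-06), PCF11_KD at 21.1% and 18.4% (-4.75 ± 0.44, 9.33e-07), and cbc_KD at 14.3% and 9.05% (-5.66 ± 0.45, 9.88e-08). PABP2_KD overlapped both PCF11 knockdowns; without its replicate 1 and replicate 2 its change was -3.50 and -4.96. Cks30A was called toward distal in 7 of 8 knockdowns, a number that 10.3% of the 525 genes reached.

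The 2 sites of Cks30A moved in opposite ways in the knockdowns where it was called, and levels of single sites were not tested. The proximal site was at 316 and 363 CPM in control and at 34.6 to 209.6 CPM in every library of the 7 called knockdowns. The distal site was at 51.2 ± 1.07 CPM in control, 359 ± 32.9 in PCF11_KD, 262 ± 11.5 in PCF11_NIG_KD and 335 ± 18.4 in cbc_KD. In suf_KD it was at 123 ± 10.1 CPM, in CstF64_KD at 124 ± 9.83, in CPSF6_KD at 121 ± 10.6 and in PABP2_KD at 201 ± 53.7. The mean distance from the stop codon to the site used went from 368 ± 3.11 nt in control to 606 ± 6.67 nt in PCF11_KD and 635 ± 13.1 nt in cbc_KD. A lower proximal mean than control was not confined to Cks30A. In cbc_KD it was 0.79-fold in CycB, 0.59-fold in CycB3 and 0.55-fold in Wee1, and in PCF11_KD 0.39-fold in gwl. Proximal means of CycB, CycB3 and Wee1 were above control in every other knockdown, and those of CycA in all. That of gwl was above control in suf_KD, CstF64_KD and CstF50_KD only.

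**Figure D3:**
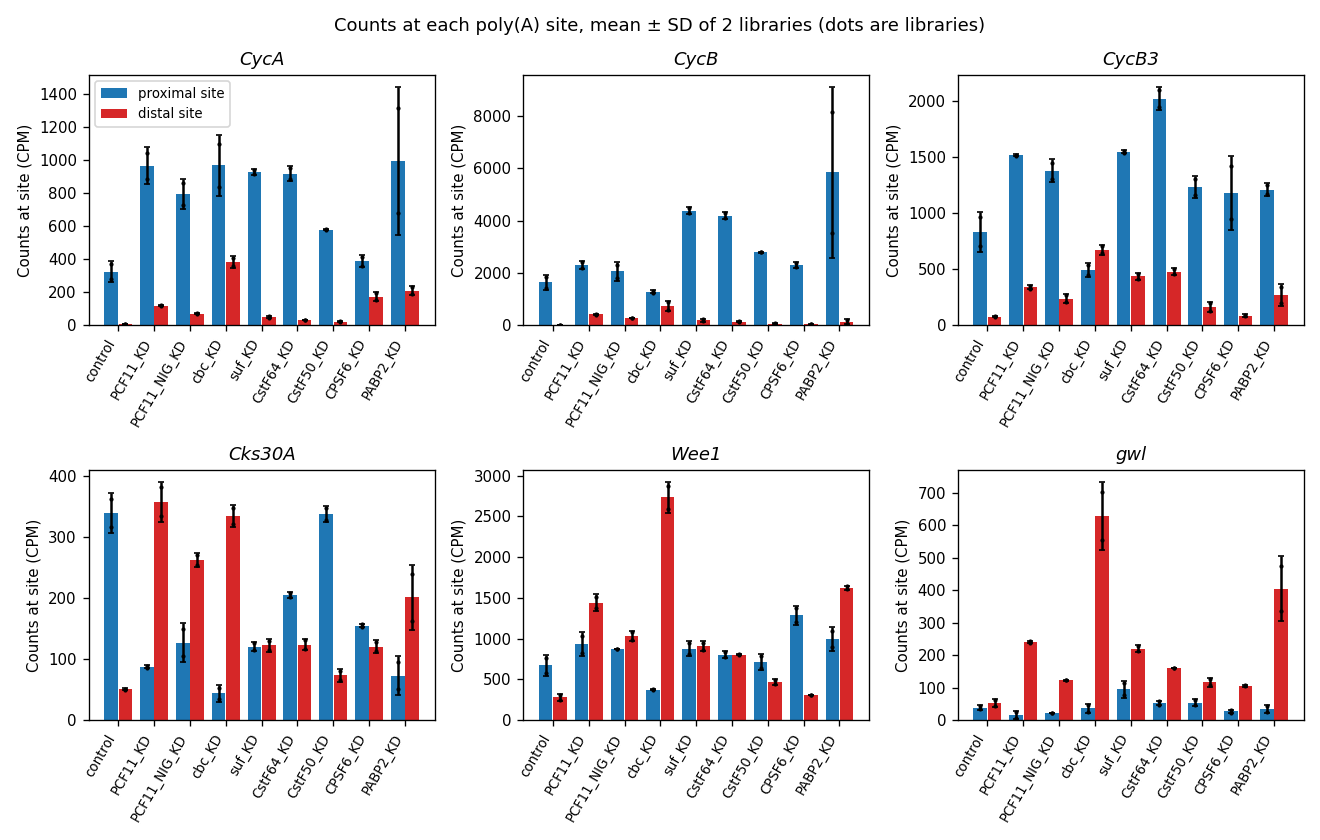
Counts at the proximal (blue) and distal (red) site in CPM, as mean (bars, from 0) ± SD of 2 libraries with the libraries as dots, 1 panel per gene. In Cks30A the proximal site is at 339.9 ± 33.2 CPM in control and 44.2 ± 13.5 in cbc_KD; in gwl the distal site is at 52.9 ± 11.5 and 629 ± 106 CPM and the proximal site at 39.2 ± 7.93 and 36.2 ± 13.2.

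Wee1 had control shares of 75.5% and 65.2%, a wider gap than the duplicates of the cyclins. In cbc_KD its shares were 11.7% and 12.4% (-4.13 ± 0.27, adjusted p = 1.11e-08). PABP2_KD had 40.01% and 35.8% (-1.98 ± 0.26, 2.73e-05), PCF11_KD 43.0% and 35.3% (-1.90 ± 0.26, 4.02e-05), and PCF11_NIG_KD 47.0% and 44.9% (-1.50 ± 0.26, 0.000372). PCF11_KD and PABP2_KD overlapped, and cbc_KD was far below every other group. In suf_KD the shares were 50.0% and 48.4% (-1.31 ± 0.26, 0.00124) and in CstF64_KD 50.7% and 49.3% (-1.26 ± 0.26, 0.00201), overlapping each other. CstF50_KD, at 56.2% and 64.0%, lay below both controls and did not pass (-0.67 ± 0.26, adjusted p = 0.0577). It passed without control replicate 2 (0.0172), CstF50_KD replicate 2 (0.0453) or either PABP2_KD library (0.0422 each). In CPSF6_KD Wee1 moved the other way, to 81.7% and 79.6% (0.80 ± 0.27, adjusted p = 0.0304). That call was lost without control replicate 2 (0.257) and without either CPSF6_KD library (0.13 and 0.0705). The distal site held 280 ± 44.0 CPM in control, 2733 ± 195 in cbc_KD and 1625 ± 27.4 in PABP2_KD, with the reads of Rat1 not separated.

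gwl, the least counted of the 6, had 32 and 31 counts in the control libraries. Its control shares were 50.0% and 35.5%, with exact 95% intervals of 31.9 to 68.1% and 19.2 to 54.6%, so at this depth the control share is known only roughly. It fell to 9.22% and 2.65% in PCF11_KD (-3.51 ± 0.59, adjusted p = 0.000254), 15.7% and 15.2% in PCF11_NIG_KD (-2.03 ± 0.55, 0.00902), 3.67% and 7.60% in cbc_KD (-3.69 ± 0.55, 4.34e-05), and 7.03% and 8.52% in PABP2_KD (-3.15 ± 0.54, 0.000259). The call in PCF11_NIG_KD was lost without control replicate 1 (0.101). In the other 4 knockdowns every library was below both controls and none passed. Shares were 34.8% and 25.3% in suf_KD (adjusted p = 0.256), 26.7% and 23.1% in CstF64_KD (0.108), 30.3% and 32.9% in CstF50_KD (0.338), and 18.6% and 21.8% in CPSF6_KD (0.0546). For CPSF6_KD the 95% interval of the change, -2.70 to -0.39, reaches values as large as some of the called ones.

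Knockdowns of the same complex were compared directly in the same fit. Between the 2 PCF11 lines 0 of 6 members passed by edgeR and 0 by DESeq2, and 2 had an unadjusted p under 0.05; 22.7% of all genes differed. These were Cks30A, with a difference of 0.96 ± 0.40 (PCF11_NIG_KD minus PCF11_KD, adjusted p = 0.109), and gwl, with 1.49 ± 0.55 (0.0738); all 6 differences were positive, as were 68% of those of all genes. The Cks30A difference passed without either PABP2_KD library (0.0164 and 0.0162), and that of gwl without PCF11_KD replicate 1 (2.70, adjusted p = 0.0221). cbc_KD was further toward distal than PCF11_KD in 4 of 6, where 45.3% of all genes were. These were CycB3 (-2.61 ± 0.32, adjusted p = 1.78e-05), Wee1 (-2.23 ± 0.25, 1.21e-05), CycA (-1.67 ± 0.26, 0.000122) and CycB (-1.61 ± 0.57, 0.0321). The last was lost without either PCF11_KD library (0.0986 and 0.105) or cbc_KD replicate 2 (0.16). Cks30A (-0.91 ± 0.43, adjusted p = 0.0908) and gwl (-0.18 ± 0.60, 0.829) did not pass. Cks30A passed without either PABP2_KD library (0.0199 and 0.0198).

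Within the cleavage stimulation factor, Cks30A was more proximal in CstF50_KD than in CstF64_KD (1.47 ± 0.41, adjusted p = 0.0161), the 1 of 6 members to differ that way, where 28.8% of all genes did. This call was lost without either CstF64_KD library (0.0852 and 0.0548) or CstF50_KD replicate 2 (0.0908). CycB3 differed the same way without either PABP2_KD library (0.87, adjusted p = 0.0158 and 0.0159). suf_KD was more distal than CstF50_KD in Cks30A (-2.22 ± 0.42, adjusted p = 0.000729), CycB3 (-1.12 ± 0.32, 0.0111) and Wee1 (-0.64 ± 0.25, 0.0499), 3 of 6 beside 45.5% of all genes. Sample numbers recur between suf_KD and CstF50_KD, so a difference between sets cannot be separated from one between these knockdowns. The CycB3 call was lost without suf_KD replicate 1 (0.0615) or CstF50_KD replicate 1 (0.0894), and the Wee1 call without suf_KD replicate 1 (0.121) or 2 (0.16), without CstF50_KD replicate 2 (0.309), with no filter on low counts (0.0508) and with the most distal site set against all others (0.0532). CycB passed there without either PABP2_KD library (adjusted p = 0.0126 and 0.0127). Between suf_KD and CstF64_KD 0 members passed by edgeR and 0 by DESeq2, 0 had an unadjusted p under 0.05, and 5.71% of all genes differed. The difference for Cks30A there was -0.75, with a 95% interval of -1.55 to 0.06.

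**Figure D4:**
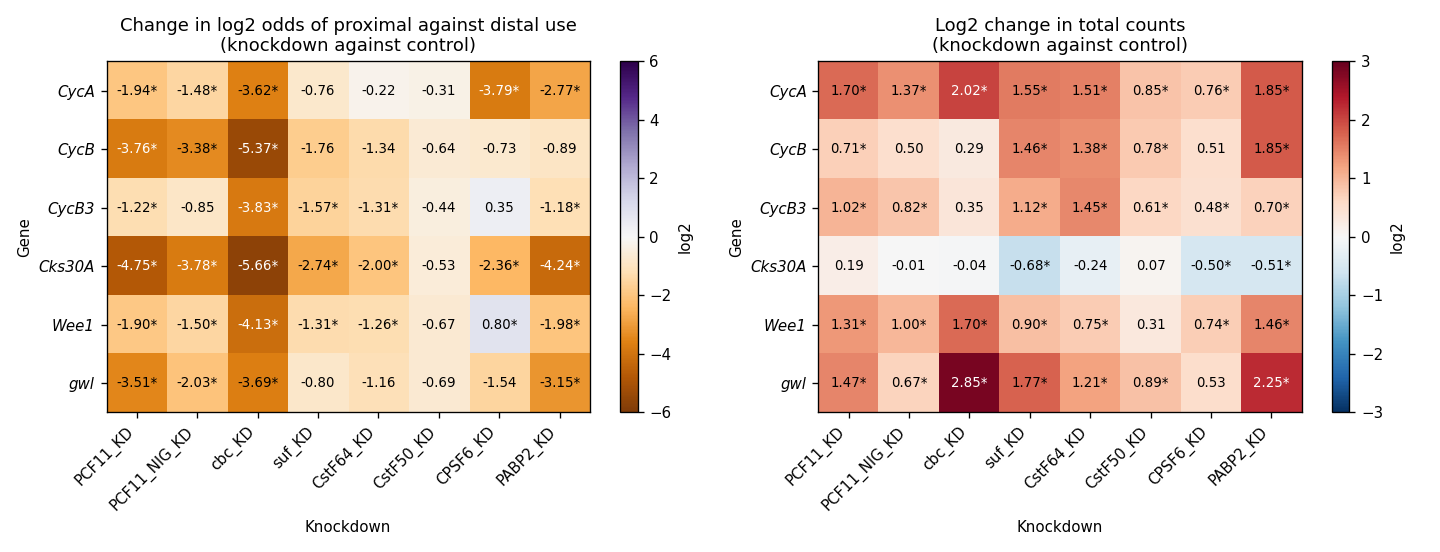
Change against control in log2 odds, proximal over distal (left) and in total counts (right, log2), for each gene (rows) and knockdown (columns), with an asterisk where the adjusted p is under 0.05. On the left, Wee1 in CPSF6_KD (0.80) is the 1 called value above 0; on the right, the called values below 0 are all in Cks30A.

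Total 3′-end counts of both sites were higher in the knockdowns for the 3 cyclins, Wee1 and gwl, and not for Cks30A. Totals are relative to the genes of the tables. CycA passed as higher in 8 of 8 knockdowns, a number that 4% of all genes reached. CycB3, Wee1 and gwl each did so in 7 of 8 (9.52% of all genes) and CycB in 5 of 8 (19.2%). Cks30A was higher in 0 of 8 and lower in 3 of 8 (30.1% of all genes were lower in as many). PCF11_KD had 5 members with higher totals (23.6% of all genes), PCF11_NIG_KD 4 (20.8%), cbc_KD 3 (32.6%) and suf_KD 5 (25.3%). CstF64_KD had 5 (24%), CstF50_KD 4 (18.1%), CPSF6_KD 3 (20.6%) and PABP2_KD 5 (32.6%). The median log2 change of the 6 members ran from 0.52 in CPSF6_KD to 1.65 in PABP2_KD, that of all genes from -0.02 to 0.057.

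CycA had totals of 291 and 379 CPM in control. The lowest knockdown values were 518 and 610 CPM in CPSF6_KD (log2 change 0.76 ± 0.24, adjusted p = 0.0222), and the highest mean was in cbc_KD, at 1512 and 1196 CPM (2.02 ± 0.24, 3.3e-06). No knockdown library overlapped the controls. PABP2_KD replicates stood apart, at 872 and 1545 CPM, and overlapped cbc_KD. The calls in CPSF6_KD and CstF50_KD (0.85 ± 0.24, 0.0126) were lost without control replicate 1 (0.177 and 0.129), without CPSF6_KD replicate 2 (0.135) and without CstF50_KD replicate 1 (0.0904).

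CycB was at 1464.5 and 1859.7 CPM in control. It was at 4529 and 4632 CPM in suf_KD (1.46 ± 0.26, adjusted p = 0.000299) and at 4246 and 4431 CPM in CstF64_KD (1.38 ± 0.26, 0.000578). PABP2_KD had 3736 and 8225 CPM, the widest gap between duplicates of any member, and 1.85 ± 0.26 (2.74e-05); without replicates 1 and 2 the change was 2.31 and 1.17, and both passed. In cbc_KD, where its site use moved most, CycB had 1924 and 2129.9 CPM and did not pass (0.29 ± 0.26, 0.352). It did so when library totals alone were used for scaling (0.62, adjusted p = 0.0377). Without either PABP2_KD library CycB also passed in PCF11_NIG_KD (0.50, adjusted p = 0.00454 and 0.00458) and CPSF6_KD (0.51, adjusted p = 0.00518 and 0.00521). The call in PCF11_KD (0.71 ± 0.26, 0.0329) was lost without control replicate 1 (0.201) or without either PCF11_KD library (0.0719 and 0.105). The call in CstF50_KD (0.78 ± 0.26, 0.0298) was lost without control replicate 1 (0.193) or without either CstF50_KD library (0.151 and 0.0779). The lowest adjusted p of these results in any alternative was 0.000278 and 0.00027.

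CycB3 had 789.7 and 1038.2 CPM in control, and was highest in CstF64_KD, at 2449 and 2551 CPM (1.45 ± 0.17, adjusted p = 1.12e-05). It was at 2015.5 and 1955 CPM in suf_KD (1.12 ± 0.17, 8.61e-05) and 1837 and 1872 CPM in PCF11_KD (1.02 ± 0.17, 0.000192). Like CycB, it did not pass in cbc_KD, at 1153 and 1182 CPM (0.35 ± 0.17, 0.0803), and it passed there with library totals alone (0.69, adjusted p = 0.00433) and without control replicate 2 (0.56, adjusted p = 0.0337). In CPSF6_KD (0.48 ± 0.17, 0.0376) and CstF50_KD (0.61 ± 0.17, 0.0114) the calls were lost without control replicate 1 (0.305 and 0.142). They were also lost without CPSF6_KD replicate 2 (0.447), with library totals alone in CPSF6_KD (0.0687), and without CstF50_KD replicate 2 (0.0704).

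Cks30A had 367 and 415 CPM in control. Its totals were lower in suf_KD, at 256 and 231 CPM (-0.68 ± 0.15, adjusted p = 0.00195, where 25% of all genes were lower), in PABP2_KD, at 290.0 and 259 CPM (-0.51 ± 0.15, 0.00874, 29.5% of all genes), and in CPSF6_KD, at 271 and 281 CPM (-0.50 ± 0.15, 0.0188, 17% of all genes). Without control replicate 2 the calls in PABP2_KD and CPSF6_KD were lost (0.107 and 0.175). That in CPSF6_KD was also lost without its replicate 1 (0.117) or 2 (0.0693) and by DESeq2 (0.0735), with 0.0124 as its lowest adjusted p in any alternative. Where its site use moved most, its total stayed within or near the controls: 376 and 383 CPM in cbc_KD (-0.043 ± 0.15, adjusted p = 0.824) and 425 and 468 CPM in PCF11_KD (0.19 ± 0.15, 0.301). The 95% interval of the change in cbc_KD was -0.33 to 0.25.

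Wee1 had 1016.5 and 895 CPM in control, 3251 and 2963 CPM in cbc_KD (1.70 ± 0.12, adjusted p = 3.87e-08) and 2741 and 2502 CPM in PABP2_KD (1.46 ± 0.12, 2.79e-07). CstF50_KD, at 1139.9 and 1230.5 CPM, was the 1 knockdown that did not pass (0.31 ± 0.12, 0.0627), and it passed without either PABP2_KD library (0.0405 and 0.0404). These totals include the distal site, where reads of Rat1 cannot be told apart. At the proximal site alone, where no other gene is annotated, Wee1 was at 767 and 583 CPM in control, 380 and 368 CPM in cbc_KD, and 1372 and 1208 CPM in CPSF6_KD.

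gwl had 89.6 and 94.7 CPM in control and 730.8 and 599.95 CPM in cbc_KD, a 7.22-fold higher mean (log2 change 2.85 ± 0.21, adjusted p = 4.39e-08). PABP2_KD had 360.2 and 519.4 CPM (2.25 ± 0.21, 7e-07), and suf_KD 327 and 304 CPM (1.77 ± 0.21, 1.23e-05). In CPSF6_KD, at 128 and 138 CPM, it did not pass (0.53 ± 0.23, 0.0831), though both libraries were above the controls, and it passed without either PABP2_KD library (0.0431 each). The calls in CstF50_KD (0.89 ± 0.22, 0.0069) and PCF11_NIG_KD (0.67 ± 0.22, 0.0234) were lost without control replicate 1 (0.0553 and 0.115), and the latter also by DESeq2 (0.0638).

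**Figure D5:**
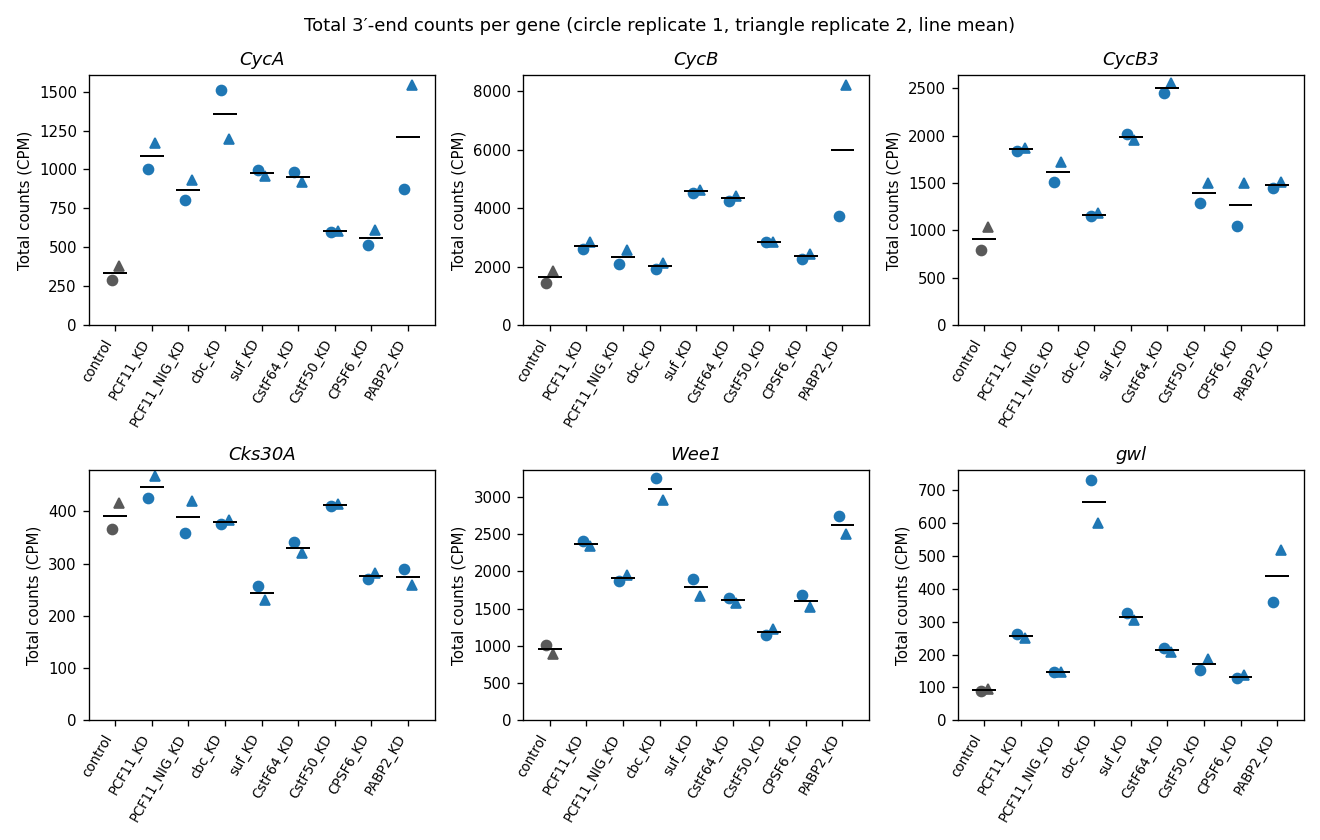
Total counts per gene in CPM (vertical axes, from 0) in each library, 1 panel per gene; circles are replicate 1, triangles replicate 2, lines the mean of 2, and grey marks the control. CycA, CycB, CycB3, Wee1 and gwl lie above both controls in every knockdown library, while Cks30A lies below both in suf_KD, CPSF6_KD, PABP2_KD and CstF64_KD.

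Markers of cell types moved in the same libraries. Of the listed markers, 8 were measured: 2 of early germ cells (chinmo, Rbp9), 1 of somatic cyst cells (zfh1), 2 of spermatocytes (simj and the Cdc25 phosphatase gene twe, with CycB left out as a member) and 3 of spermatids (m-cup, r-cup, nes); other defining markers such as vas, bam, tj and aly were not analysed here. zfh1 was at 456 to 482 CPM in control and at 69.1 to 231 CPM over the knockdown libraries. The summed spermatocyte markers were at 1276.9 to 1459.7 CPM in control. They were at 2996 to 3127 CPM in cbc_KD, 2999.6 to 3049.9 in CstF64_KD, 2784.1 to 2810.2 in suf_KD, 2329 to 2588 in PCF11_KD and 2178 to 2836 in PABP2_KD. They were nearer the control, at 1612.5 to 1659.7 CPM in CstF50_KD, 1628 to 1725 in PCF11_NIG_KD and 1431 to 1765 in CPSF6_KD, the last overlapping control. In these groups, in this order, the log2 changes of simj were 0.015, -0.015 and -0.026. Those of twe were 0.40, 0.46 and 0.37 (adjusted p = 0.0456, 0.0167 and 0.0572 by edgeR), so the sum there rose through twe. In suf_KD and CstF64_KD simj rose more (log2 change 1.47 and 1.34) than twe (0.65 and 1.00). In cbc_KD, PCF11_KD and PABP2_KD twe rose more (1.39, 0.92 and 1.10) than simj (0.73, 0.73 and 0.44). Whether simj is confined to spermatocytes was not tested. The early germ cell markers summed to 2722 to 2895 CPM in control, 3833 to 4415.5 in cbc_KD and 1395.5 to 2594.5 in the other knockdowns, and this sum joins genes that moved apart. Rbp9 had a mean of 1528 CPM in control and 152 (CPSF6_KD) to 567 (CstF50_KD) in the knockdowns. chinmo went from 1281 CPM to 3764 in cbc_KD and 1269 (PCF11_NIG_KD) to 2233 (suf_KD) in the others. In cbc_KD the log2 changes were -2.09 ± 0.22 for Rbp9 and 1.56 ± 0.15 for chinmo (adjusted p = 1.04e-06 and 5.64e-07). The spermatid markers summed to 9552 to 10519.9 CPM in control, and over the knockdowns to 8263 in PABP2_KD to 14333 in CPSF6_KD. They too moved apart in PCF11_KD, by -0.65 ± 0.14 for m-cup and 0.68 ± 0.17 for r-cup (adjusted p = 0.00201 and 0.00455), with 0.074 ± 0.15 for nes (0.688). The part of cell composition in the totals and site use of the 6 genes was not tested.

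Of the other genes on a cell cycle list, 10 were measured (simj and twe are also among the markers), and Cdk1, Cdk2, Myt1, stg, polo, aurA and endos were not among the entries. In PCF11_KD 6 of these 10 moved toward distal and 1 toward proximal, where 43.8% and 9.52% of all genes did. The counts were 5 and 2 in PCF11_NIG_KD (33.9% and 12.4% of all genes), 7 and 0 in cbc_KD (60.6% and 6.67%), and 4 and 0 in suf_KD (26.1% and 11.6%). CstF64_KD had 3 and 2 (17.7% and 21.1%), CstF50_KD 2 and 4 (6.86% and 33.9%), CPSF6_KD 4 and 2 (14.7% and 24.2%), and PABP2_KD 5 and 3 (37.3% and 21.7%). pim, the securin gene, and vih, the E2 enzyme gene of the anaphase-promoting complex, moved toward distal in all 8 knockdowns. Calls toward distal in 7 or more knockdowns were reached by 10.3% of all genes. The share of pim was 62.2% ± 0.29 in control, 5.53% ± 0.81 in cbc_KD and 39.8% ± 3.11 in CstF50_KD, its highest value in a knockdown. twe, which activates Cdk1 in meiosis, moved toward distal in 6 knockdowns, from 99.1% ± 0.26 to 85.5% ± 0.058 in cbc_KD (-4.21 ± 0.60, adjusted p = 2.85e-05). Calls toward distal in 6 or more were reached by 16.4% of all genes. CycT, a cyclin of the transcription kinase P-TEFb, moved the other way in 6 knockdowns, from 85.9% ± 4.35 to 97.2% ± 0.49 in CstF50_KD (2.51 ± 0.30, 6.35e-05). At least 1 call toward proximal was reached by 47.2% of all genes, and the percent with 6 was not counted. In totals, 2 of the 10 were higher in CPSF6_KD (20.6% of all genes), 8 in cbc_KD (32.6%) and 4 to 6 in the others (18.1% to 32.6%). The 1 that was lower, in PCF11_KD, PCF11_NIG_KD and cbc_KD (21.9%, 22.9% and 30.1% of all genes), was fzr, whose product activates the anaphase-promoting complex, at -2.08 ± 0.14 in cbc_KD (adjusted p = 1.32e-08).

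Among 478 genes that averaged 50 or more counts in a library, the shares over the 9 group means most like those of each member were found by Pearson's r, as a description over groups that share a control. For Cks30A these were CG5065 (0.982) and Cerk (0.970), and for gwl Cerk (0.965) and Kr-h2 (0.949). For Wee1 they were Dgp-1 (0.973) and Syx6 (0.969), and for CycB fzr (0.990) and Miga (0.987). CycB3 was most like orb (0.983) and CG33293 (0.979), both of which kept over 90% proximal use in cbc_KD (92.9% and 96.3%). CycA had the least close matches, neur (0.867) and CG12713 (0.835), both low in CPSF6_KD, at 37.8% and 50.8%, as in cbc_KD, at 22.0% and 37.0%. Among the members themselves, r was highest for Cks30A and gwl (0.94) and lowest for CycA and Wee1 (0.20).

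The authors' deposited table listed 41 of the 48 pairs of a member and a knockdown, and its call was the same as here in 36. A further 5 pairs passed in the authors' deposited table alone: CycB3 in PCF11_NIG_KD (adjusted p = 0.000307), gwl in suf_KD (0.0484), CstF64_KD (0.00211) and CPSF6_KD (0.00131), and Wee1 in CstF50_KD (0.028). No pair passed here and not there, and the 7 pairs not listed did not pass here.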

How the data were processed

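Per the run logs, the authors made the deposited tables of unscaled read counts at poly(A) sites with PolyA-miner, without regard to strand, in blocks of 30 nt. The submitters' processing notes name Bowtie, SAMtools, dm6 and BDGP6. The authors' deposited result tables give adjusted p-values and a score named PolyAIndex. The tables were joined over 18 libraries; the 4 entries of 529 under a mean of 10 counts per library were not tested. Site use was tested with edgeR 4.0.16 (R 4.3.3) on 36 columns, a proximal and a distal one per library, with a coefficient per library, and totals with edgeR and TMM scaling; SE is the change divided by the square root of F, intervals of a change are 1.96 SE, and p values were adjusted over 525 genes. Tested on simulated data for PCF11_KD (525 genes, 200 changed), the usage fit recovered 89.5% of changed genes with 2.19% false calls. Every changed gene was given a 4-fold change in odds, and all libraries were given the same spread. No other knockdown was simulated, and spread between duplicates differed by group (chi-square per degree of freedom 5.64 in PCF11_KD, 92.9 in PABP2_KD). These rates therefore do not carry over to the other comparisons, nor to smaller changes or the unequal spread of the real libraries in PCF11_KD. Alternatives were DESeq2 1.42.0, other scalings, no filter, a replicate block and leaving out each library. The labels do not say whether duplicates came from separate crosses, so p-values measure only the spread between these libraries. The exact binomial intervals of single libraries cover counting error only, and without molecular identifiers they may be too narrow. Between groups, deviations of libraries by replicate number correlated at -0.38 to 0.31 in usage and -0.51 to 0.43 in totals, with either sign. With control they ran from -0.05 to 0.20 and from -0.23 to 0.37. Annotation was Ensembl's for BDGP6. Members, lists and tests were chosen with earlier results of these data known. Named genes were the members, the measured cell cycle genes, and the 2 most similar genes per member. Sequences at the sites were not analysed here.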

Additional observations from a re-analysis of the deposited data

How the results depend on the processing

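Of 78 member results on site use under 4 other settings (312 alternatives), 308 kept their direction and side of the threshold, 2 lost and 2 gained a call. With a library left out (456), 408 did, 21 lost and 20 gained a call, and 7 uncalled values changed sign. Of 240 alternatives for 48 totals, 229 did, 3 lost and 4 gained a call and 4 changed sign. With a library left out (276), 242 did, 20 lost and 9 gained a call and 5 changed sign. No called value reversed. Apart from left-out libraries, counts of members called moved by over 1.5 times with the replicate block in CstF50_KD site use (1, Wee1, adjusted p = 0.0499, against 0). They also did so with library totals alone in cbc_KD totals (5 against 3). Correlations of deviations by replicate number were of either sign (-0.38 to 0.31 in usage, -0.51 to 0.43 in totals). The block otherwise gained 2 calls in totals (CycB3 in cbc_KD, adjusted p = 0.0411, and Wee1 in CstF50_KD, 0.0444). With library totals alone the median of all genes shifted by 0.37 in cbc_KD and 0.14 in suf_KD, and 66.9% of calls in cbc_KD were higher, against 52%. Reversed values were Cks30A totals in PCF11_NIG_KD (0.013 by RLE factors, 0.015 by library totals, 0.013 by DESeq2; -0.093 to 0.22 with a library left out) and cbc_KD (0.29 by library totals; -0.13 to 0.047) and CstF50_KD (-0.012 to 0.22). With a library left out (PABP2_KD libraries in other comparisons too, chosen after seeing the data), uncalled log2 odds ran from -0.57 to 0.11 for CycA in CstF64_KD, -0.67 to 0.017 for CycA in CstF50_KD, -0.069 to 0.75 for CycB3 in CPSF6_KD, -2.10 to 0.59 for CycB in PABP2_KD, -0.82 to 1.04 for gwl in cbc_KD against PCF11_KD and -0.45 to 0.20 for gwl in suf_KD against CstF50_KD. Genes with changed use then numbered 124 to 233 in CstF64_KD, 128 to 250 in CstF50_KD, 129 to 244 in CPSF6_KD, 73 to 161 between the PCF11 lines, 109 to 214 for CstF50_KD against CstF64_KD and 7 to 83 for suf_KD against CstF64_KD. Genes with changed totals numbered 112 to 236 in CstF50_KD and 131 to 255 in CPSF6_KD. Members called by use numbered 0 to 1 in CstF50_KD, 0 to 1 between the PCF11 lines, 0 to 2 for CstF50_KD against CstF64_KD and 1 to 4 for suf_KD against CstF50_KD; by totals, 3 to 4 in cbc_KD, 0 to 5 in CstF50_KD and 1 to 6 in CPSF6_KD. The cause of these moves was not tested. In control libraries gwl had 32 and 31 counts, and the distal site 4 and 3 counts in CycA and 8 and 7 in CycB.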
